A study of Mus musculus with 10 samples.

Results

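The Hes and Hey genes encode the transcriptional repressors through which Notch signalling acts in dividing cells. The 7 genes described here, Hes1, Hes3, Hes5, Hes6, Hey1, Hey2 and Heyl, were chosen by name and are 7 of 20405 genes measured. Expression was measured in the cortices of mouse embryos at E10.5 on whole-transcript Affymetrix arrays, with 1 embryo (a pair of cortices) per array. The mutants were 5 embryos with 1 mutant copy (the allele Mos2, in heterozygous state) of Magoh, an exon junction complex gene, and the wild type were 5 C57BL/6 embryos. The labels give C57BL/6 as the background of both genotypes and do not say whether mutants and wild-type embryos were littermates. Each of the 7 was measured by 1 probe set, and values are log2 RMA levels.

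In the wall of the early cortex, a cell with active Notch keeps dividing as a progenitor, while a neighbour with less Notch activity starts to become a neuron. Cleavage of the Notch receptor by gamma-secretase frees its intracellular part, which joins the DNA-binding protein Rbpj and switches on several Hes and Hey genes. The Hes proteins then bind the regulatory DNA of proneural genes such as Neurog2 and hold them down. Hes6 is an exception among the members, since it counteracts Hes1 and is expressed in cells that are leaving the progenitor state.

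As a guide to background, 95% of negative-control probe sets lay below 8.57 (mean of the 10 arrays), and a difference of a gene at lower levels is approximate. The label of cortex was checked against defining markers. Of 10 cortical progenitor markers, 8 had a mean level at or above 8.57, and these included Lhx2, Sox2 and Pax6. Sox2 and Pax6 also mark progenitors outside the cortex. The 2 below it were Emx1 (8.03) and Emx2 (8.55), the markers of the list most particular to the dorsal forebrain. Magoh checked the genotype labels. Its level was 10.31, 10.30, 10.37, 10.17 and 9.92 on the 5 mutant arrays, against 11.07, 11.08, 11.14, 11.06 and 10.90 on the 5 wild-type arrays. Every mutant array lay below every wild-type array (log2 difference -0.84, SE 0.08, limma adjusted p = 8.48e-05). Mutant arrays 1 and 5 had the lowest limma array weights, 0.254 and 0.411. The other 8 arrays had weights between 0.914 and 2.13. A weight reflects how far an array departs from the fitted mean of its genotype. It cannot tell array quality from real variation between embryos. For several genes of the pathway, values without mutant arrays 1 and 5 are given beside the result.

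None of the 7 genes passed the test (limma, adjusted p under 0.05 over all genes), with 0 higher and 0 lower. Across all genes 0.573% passed it, 0.26% higher and 0.314% lower. With a threshold of 0.1, Hes5 was the 1 that passed, as a lower gene, where 0.588% of all genes did. In 4 of the 7, Hes5, Hes6, Hey1 and Hey2, the mutant mean was below the wild-type mean, by between 0.18 and 0.28 on the log2 scale. The other 3, Hes1, Hes3 and Heyl, differed from wild type by at most 0.05. The median difference over the 7 was -0.18, beside 0.00 over all genes. With p under 0.05 before adjustment, 3 were lower (Hes5, Hes6 and Hey1) and 0 were higher, where 4.68% of all genes were lower and 4.57% higher at that level.

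**Figure D1:**
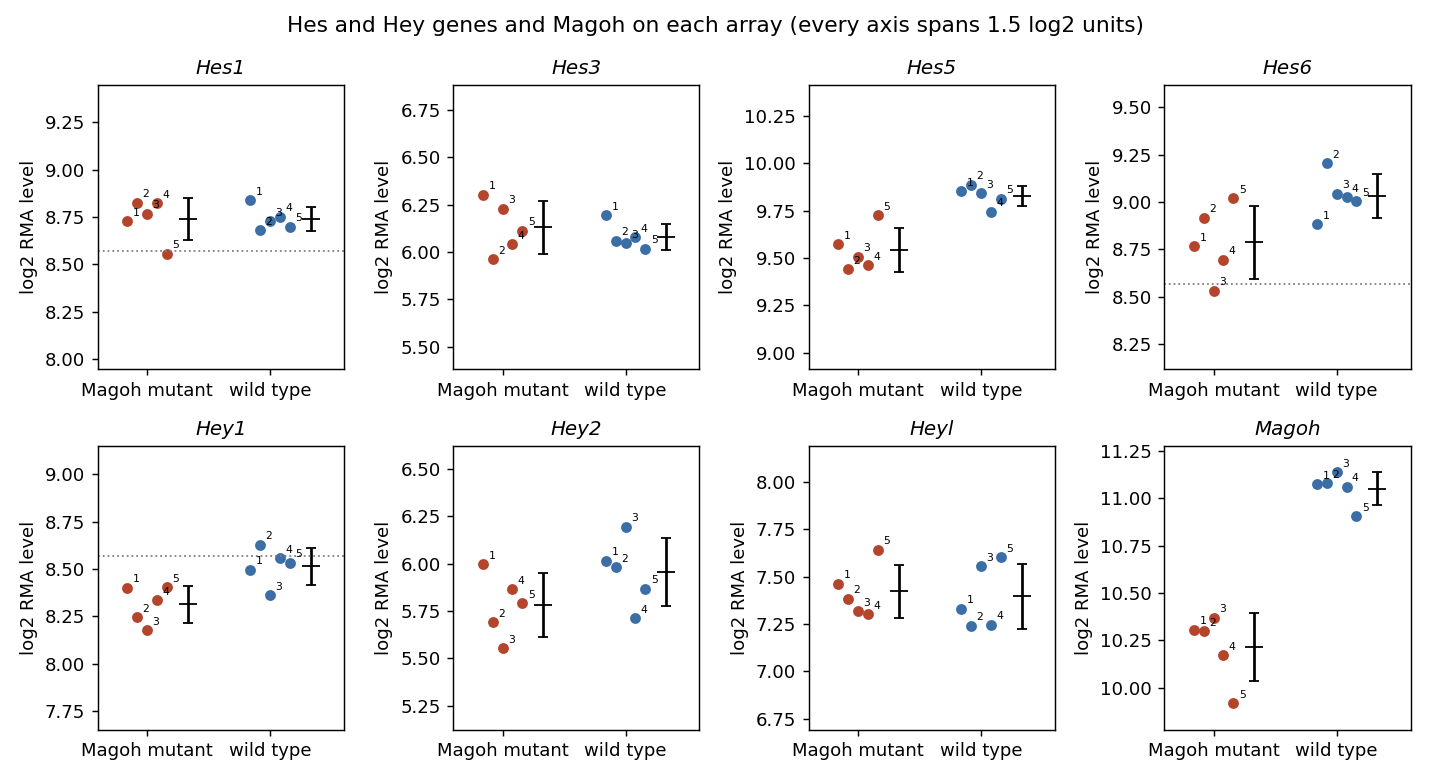
Log2 RMA level (vertical axes) of the 7 Hes and Hey genes and of Magoh in Magoh mutant (red, left) and wild-type (blue, right) cortices. Points are single arrays with their replicate number, bars are mean and SD over 5 arrays, and the dotted line is 8.57, the 95th percentile of negative controls. This line falls within the axes of Hes1, Hes6 and Hey1 only. The genotypes separate fully for Hes5 and Magoh and overlap for the other 6 genes.

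Hes5, a direct Notch target and a main repressor of neurogenesis in the cortex, had the lowest p of the 7. Its level was 9.57, 9.44, 9.51, 9.46 and 9.73 on the mutant arrays, against 9.85, 9.89, 9.84, 9.74 and 9.81 on the wild-type arrays. Every mutant array lay below every wild-type array, with mutant array 5 just under wild-type array 4. Of all genes, 1.39% were lower in mutants with no overlap between the genotypes. The means were 9.54 ± 0.11 in mutants and 9.83 ± 0.05 in wild type (SD, n = 5 each), a log2 difference of -0.28 (SE 0.07, 95% interval -0.43 to -0.14). This is 0.821 of the wild-type level. The adjusted p in limma was 0.0757, so the difference missed the threshold, and Hes5 ranked 174 of 20405 genes by p. In whole tissue, fewer cells of a type and less RNA per cell cannot be told apart.

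Whether Hes5 passed depended on the setting, while its direction did not. In 19 other settings of the fit the difference stayed between -0.36 and -0.26. It passed in 5 of them. Without mutant array 5 the difference was -0.33 and the adjusted p 0.0206, and with limma array weights they were -0.34 and 0.00408. Without mutant arrays 1 and 5 together, a setting chosen after their values were seen, they were -0.36 and 0.00651. Leaving out dim genes kept the difference at -0.28 and gave an adjusted p of 0.0461 or 0.0454, depending on the limit. With any other single array left out the adjusted p ran up to 0.23.

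**Figure D2:**
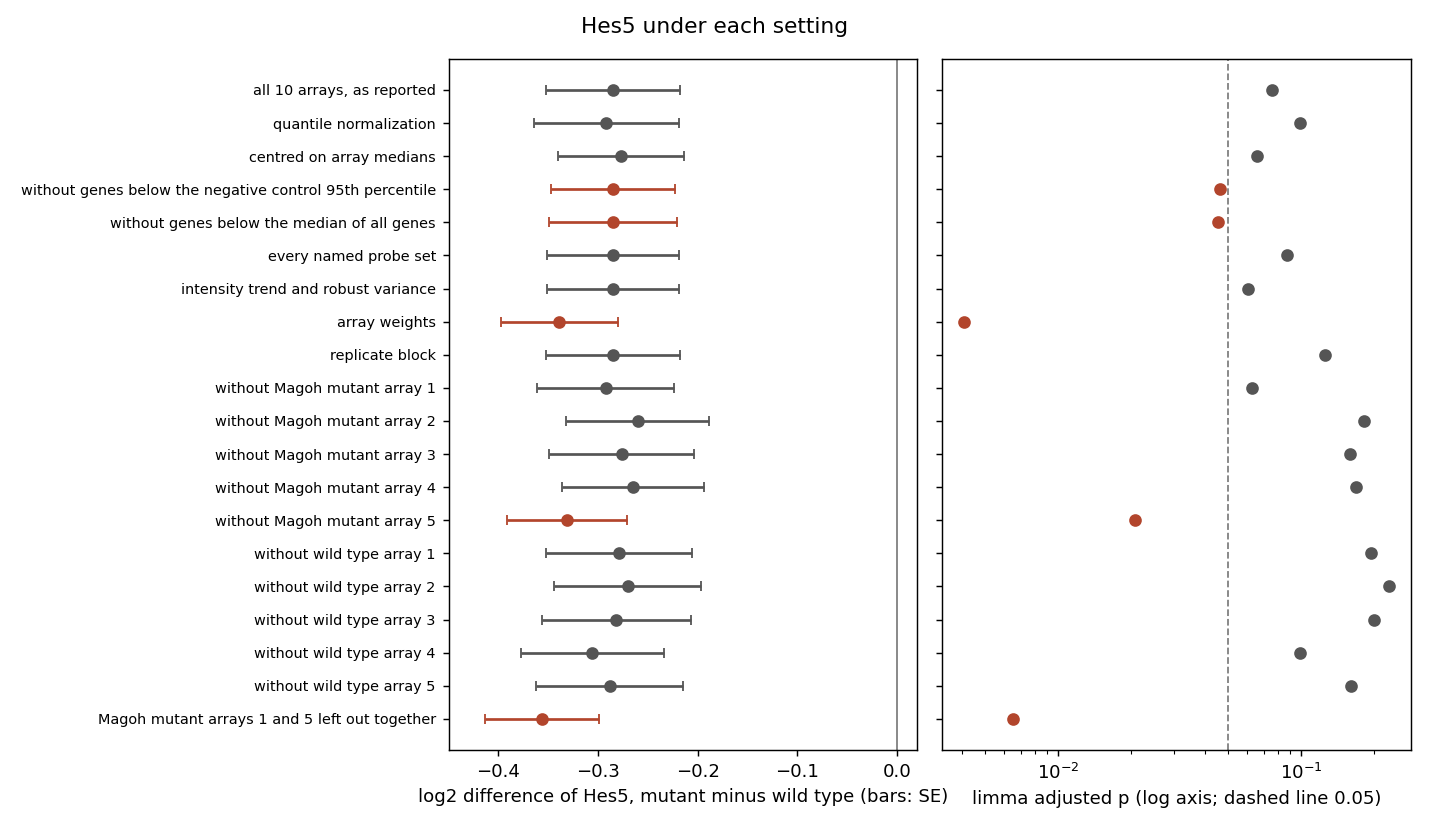
Log2 difference of Hes5, mutant minus wild type, with its SE (left) and limma adjusted p on a log axis (right) under each setting. Red points have an adjusted p under 0.05 (dashed line). Every difference lies between -0.36 and -0.26, and the adjusted p runs between 0.00408 and 0.23.

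The sequence just before the start of Hes5 is shown because it holds the letters that Rbpj binds. Promoter windows of 250 bases were matched in RefSeq (GRCm38.p6) for 3 of the 7 genes, Hes5, Hes6 and Hey2. Capitals mark TGGGAA or its reverse complement TTCCCA, the core of the Rbpj site, and each window is written 5′ to 3′ on the strand of its gene.
Hes5 (chr4:154960673-154960922, plus strand): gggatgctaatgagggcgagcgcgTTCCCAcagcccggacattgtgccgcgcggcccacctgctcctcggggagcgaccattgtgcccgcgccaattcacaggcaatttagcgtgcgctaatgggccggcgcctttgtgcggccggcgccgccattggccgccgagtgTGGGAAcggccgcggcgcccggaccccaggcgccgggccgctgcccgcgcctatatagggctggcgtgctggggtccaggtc
Hey2 (chr10:30842784-30843033, minus strand): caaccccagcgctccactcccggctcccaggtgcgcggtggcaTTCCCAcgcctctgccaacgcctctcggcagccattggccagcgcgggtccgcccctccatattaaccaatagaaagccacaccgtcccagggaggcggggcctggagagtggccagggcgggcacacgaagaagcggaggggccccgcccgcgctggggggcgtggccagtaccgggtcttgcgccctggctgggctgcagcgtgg
The Hes5 window holds 2 matches in opposite orientation, which begin 226 and 82 bases before the start. Hey2 has 1 match, which begins 207 bases before the start, and both windows of Hes6 have 0. Over 32851 promoter windows of the same length, searched on both strands, 21.6% held at least 1 match and 2.77% held 2 or more. The E-box CACGTG, a letter pattern bound by proteins of the same class as Hes and Hey, was found in 0 of the 4 windows and in 6.02% of all windows. The N-box CACNAG, a site bound by Hes proteins, occurred once, in a Hes6 window, and in 36.7% of all windows. A match describes letters in the window and was not tested as a binding site.

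Hes1 acts beside Hes5 in the same progenitors, and either gene can cover in part for loss of the other. Its level was 8.73, 8.82, 8.77, 8.82 and 8.56 on the mutant arrays, against 8.84, 8.68, 8.73, 8.75 and 8.70 on the wild-type arrays. The genotypes overlapped throughout, and the lowest value was mutant array 5. The means were 8.74 ± 0.11 in mutants and 8.74 ± 0.06 in wild type (SD, n = 5 each), with a difference of 0.0003 and a 95% interval of -0.14 to 0.14. The interval covers changes of up to 0.906 or 1.10 times the wild-type level. Both means lay a little above 8.57, where background still adds to the signal, and the adjusted p in limma was 0.999. The sign turned in 7 of 19 other settings, within a range of -0.02 to 0.07.

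Hes3, a repressor of the early neural plate that is switched off as the cortex matures, was dim. Its levels ran between 5.96 and 6.30 on mutant arrays, against 6.02 and 6.196 on wild-type arrays. These lie near the medians of the negative controls, which were 5.34 to 5.82, so a change could be hidden by background. The log2 difference was 0.05 (95% interval -0.10 to 0.21, limma adjusted p = 0.897).

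Hes6 was measured at 8.77, 8.92, 8.53, 8.70 and 9.02 on the mutant arrays, against 8.88, 9.21, 9.04, 9.03 and 9.01 on the wild-type arrays. The genotypes overlapped, with mutant arrays 2 and 5 inside the wild-type range. The means were 8.79 ± 0.19 in mutants and 9.03 ± 0.12 in wild type (SD, n = 5 each), a log2 difference of -0.25 (95% interval -0.44 to -0.06, limma adjusted p = 0.34). Without mutant array 5 the difference was -0.30 and without mutant array 3 it was -0.18. Hes6 passed in 0 of 19 other settings, with adjusted p between 0.0814 and 0.666.

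Hes6 marks cells on the way to becoming neurons, and neuron markers are given beside it. Of 15 early neuron markers, 8 fell and 0 rose, where 0.314% of all genes fell, and 10 had mean levels below 8.57. With p under 0.05 before adjustment, 12 were lower and 1 (Neurod6) higher, and 13 of the 15 had negative differences. Relative to the wild-type mean, the mean of that list was -0.64 to -0.18 on mutant arrays and -0.11 to 0.16 on wild-type arrays, without overlap. Mutant array 5, with the highest Hes6 of the mutants, was also the mutant array with the highest neuron markers, and mutant array 3, with the lowest Hes6, had the lowest. Among wild-type arrays the order matched less well. Wild-type array 2 was highest in both. Wild-type array 1 had the lowest Hes6 (8.88) but a list mean of 0.04, and the lowest list mean, -0.11, was on wild-type array 5. The part of neuron number in the Hes6 difference was not tested. The 10 progenitor markers, 1 of which is Hes5 itself, had a list mean of -0.24 to -0.02 on mutant arrays and -0.10 to 0.08 on wild-type arrays. Of these 10, 0 passed in limma, 5 were lower and 0 higher with p under 0.05 before adjustment, and 8 had negative differences.

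Hey1, a partner of Hes proteins that is expressed in cortical progenitors and in vessels, was measured at 8.40, 8.25, 8.18, 8.34 and 8.40 on the mutant arrays, against 8.50, 8.63, 8.36, 8.56 and 8.53 on the wild-type arrays. Only wild-type array 3 reached into the mutant range. The means were 8.31 ± 0.10 in mutants and 8.52 ± 0.10 in wild type (SD, n = 5 each), a log2 difference of -0.20 (95% interval -0.35 to -0.05, limma adjusted p = 0.303). Both means lay below 8.57, so the size is approximate. Hey1 passed in 0 of 18 other settings, in which its difference lay between -0.26 and -0.17.

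Hey2 and Heyl are best known from heart and blood vessels, and both were dim here. Hey2 was between 5.55 and 6.00 on mutant arrays, against 5.71 and 6.19 on wild-type arrays, a log2 difference of -0.18 (95% interval -0.38 to 0.03, limma adjusted p = 0.623). Heyl was between 7.30 and 7.64 on mutant arrays, against 7.24 and 7.60 on wild-type arrays, a difference of 0.03 (95% interval -0.16 to 0.22, limma adjusted p = 0.961). The ranges overlapped for both genes, and the sign of Heyl turned in 5 of 18 other settings.

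**Figure D3:**
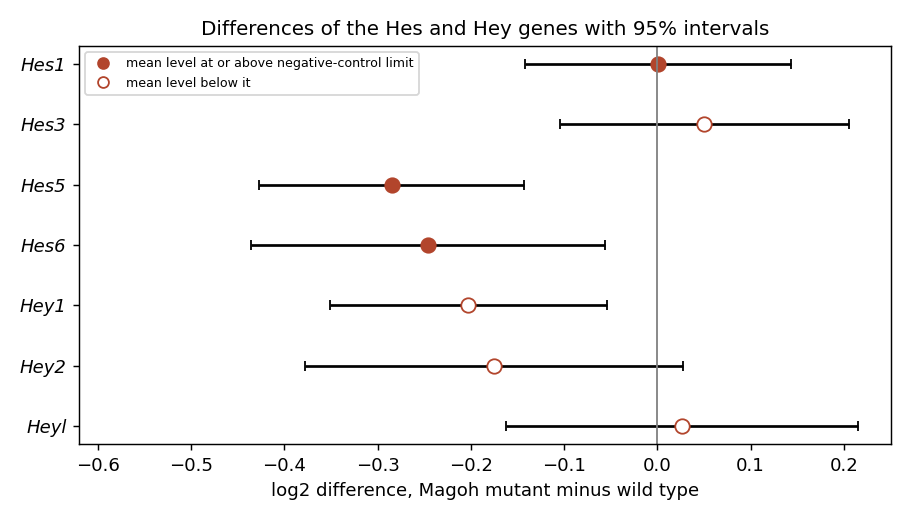
Log2 difference, Magoh mutant minus wild type, of each Hes and Hey gene with its 95% interval. Filled points have a mean level of at least 8.57 and open points a lower one. The intervals of Hes5, Hes6 and Hey1 lie below 0, and those of the other 4 genes cross it.

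Because Hey genes are also used in blood vessels, markers of vessels and other cells in the dissection are given beside them. The list mean of 20 endothelial markers, relative to wild type, was 0.03 to 0.17 on mutant arrays and -0.10 to 0.10 on wild-type arrays, with 0 called in limma, 4 higher with p under 0.05 before adjustment and 17 below 8.57. For 19 mural and mesenchyme markers it was -0.19 to 0.06 on mutant arrays and -0.04 to 0.06 on wild-type arrays, with 0 called, 3 lower and 1 higher with p under 0.05 before adjustment and 12 below 8.57. Endothelial markers had a higher mean in mutants, with overlapping array ranges. Hey1 and Hey2 had lower means, and Heyl differed by 0.03. For 15 red cell markers the list mean was -0.11 to 0.52 on mutant arrays and -0.14 to 0.18 on wild-type arrays (8 below 8.57). The 15 macrophage markers, all below 8.57, had -0.21 to -0.08 on mutant arrays and -0.08 to 0.06 on wild-type arrays. The 12 surface ectoderm markers, 8 of them below 8.57, had -0.0028 to 0.23 on mutant arrays and -0.09 to 0.24 on wild-type arrays. In these 3 lists 0 genes passed in limma, while 10 red cell genes were higher and 5 macrophage genes lower with p under 0.05 before adjustment. The part of other cell types in the results was not tested.

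Whether Hes5 and Hes6 differed more than Hes1 was tested within arrays, where any level shared by the whole array cancels. These 3 contrasts were chosen after the values were seen, among the 3 members with a mean of at least 8.57. Hes5 minus Hes1 was 0.84, 0.62, 0.74, 0.64 and 1.17 on the mutant arrays, against 1.01, 1.20, 1.11, 0.99 and 1.11 on the wild-type arrays. Mutant arrays 1 to 4 lay below every wild-type array, and mutant array 5 lay inside the wild-type range. The contrast was 0.80 ± 0.22 in mutants and 1.09 ± 0.09 in wild type, a change of -0.29 (SD, n = 5 each, exact two-sided permutation p = 0.0476, adjusted over 3 contrasts 0.143). After adjustment the change in Hes5 was thus not shown to differ from that in Hes1. Without mutant array 5 the change was -0.38 (exact permutation p = 0.0159 unadjusted), the smallest p that the test allows with those arrays. With any other array left out p was between 0.0635 and 0.0952. Hes6 minus Hes1 changed by -0.25 (exact permutation p = 0.103, adjusted 0.155) and Hes5 minus Hes6 by -0.04 (exact permutation p = 0.683, adjusted 0.683). For Hes6 minus Hes1 the unadjusted p with single arrays left out ran between 0.0317 (without mutant array 5, a change of -0.35) and 0.206 (without mutant array 3, a change of -0.18, or wild-type array 2). The smallest p that 5 against 5 arrays allow is 0.00794.

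**Figure D4:**
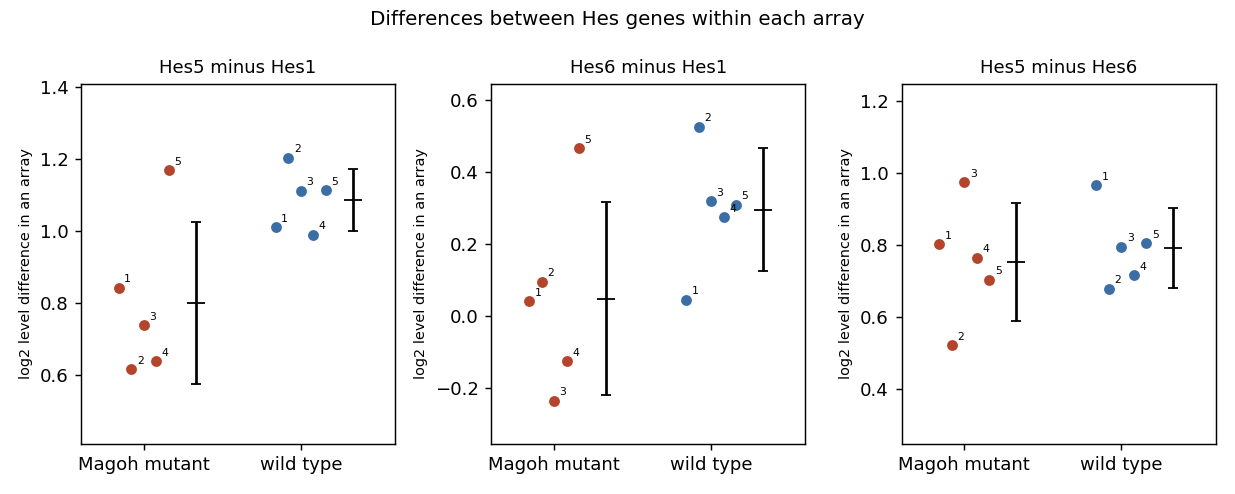
Difference in log2 level between 2 Hes genes on the same array, for Magoh mutant (red, left) and wild-type (blue, right) cortices. Points are arrays with their replicate number and bars are mean and SD over 5 arrays. For Hes5 minus Hes1, mutant arrays 1 to 4 lie between 0.62 and 0.84 and mutant array 5 at 1.17, and the wild-type arrays lie between 0.99 and 1.20.

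The rest of the pathway was read from 10 lists with 82 different genes, all of them measured. Of these 82, 0 rose, 3 fell (Fabp7, Id4 and Neurog2) and 79 did not pass, with 42 below 8.57 and a median difference of -0.03. Across all genes 0.26% rose and 0.314% fell. The lists were chosen with earlier results of these data known. Without mutant array 5 the number of the 82 that fell was 5 (91 of all genes), and without wild-type array 2 it was 1 (31 of all genes). With mutant arrays 1 and 5 left out together it was 8, and 1 gene rose. Calls over all genes also increased in that setting, to 249 lower and 253 higher, from 64 and 53 with all 10 arrays.

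Among the 5 ligands, 0 passed in limma (1 lower and 0 higher with p under 0.05 before adjustment), and the median difference was 0.05. Dll3, a ligand made by newly committed cells that acts inside the cell and dampens Notch, had the largest difference. It was 7.977, 7.53, 7.15, 7.56 and 7.89 on the mutant arrays, against 7.998, 8.16, 8.19, 7.982 and 7.981 on the wild-type arrays. Mutant arrays 1 and 5 lay just under the wild-type range and the other 3 well under it. The log2 difference was -0.44 (SE 0.12, limma adjusted p = 0.165), with every level below 8.57. Dll3 passed without mutant array 1 (-0.53, adjusted p = 0.0392), and it was -0.65 (adjusted p = 0.00272) without mutant arrays 1 and 5 together. It did not pass when any other single array was left out (highest adjusted p 0.379). The smallest of these differences, -0.32, came from leaving out mutant array 3 (adjusted p = 0.247). Dll1, the activating ligand of cells that are becoming neurons, differed by -0.14 (limma adjusted p = 0.66), and by -0.25 (adjusted p = 0.0913) without mutant arrays 1 and 5. For Jag1, Dll4 and Jag2, also activating ligands, the differences were 0.14, 0.13 and 0.05 (limma adjusted p = 0.566, 0.548 and 0.896). Without mutant arrays 1 and 5 that of Jag1 was 0.09.

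Of the 4 receptors, 0 passed in limma, with 2 higher and 0 lower with p under 0.05 before adjustment. Notch1, the main receptor of cortical progenitors, was 10.003, 9.35, 9.16, 9.40 and 9.71 on the mutant arrays, against 9.62, 9.76, 9.71, 9.52 and 9.79 on the wild-type arrays. Mutant arrays 2 to 4 lay below the wild-type range and mutant array 1 above it. The log2 difference was -0.15 (SE 0.12, limma adjusted p = 0.789), and -0.38 (adjusted p = 0.0243) without mutant arrays 1 and 5 together, a setting chosen after their values were seen. Leaving out single arrays never brought Notch1 past the threshold. Its difference was -0.27 (adjusted p = 0.241) when mutant array 1 was dropped and -0.06 (adjusted p = 0.907) when mutant array 3 was. For Notch2, Notch3 and Notch4 the differences were 0.18, 0.21 and 0.15 (limma adjusted p = 0.697, 0.533 and 0.524). Without mutant array 1 they were 0.06, 0.13 and 0.10, and without mutant arrays 1 and 5 together 0.03, 0.09 and 0.08. Mutant array 1 was the highest of all 10 arrays for each of the 4 receptors.

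The machinery between receptor and Hes genes held 0 genes that passed in limma. With p under 0.05 before adjustment, 0 modifiers, 1 gamma-secretase gene (lower) and 1 gene of the nuclear complex (higher) stood out. Among 11 modifiers of ligands and receptors, the smallest p belonged to the glycosyltransferase gene Mfng (-0.13, limma adjusted p = 0.744) and the ubiquitin ligase gene Mib1 (-0.10, adjusted p = 0.748). Without mutant arrays 1 and 5 together Mfng was -0.27 (adjusted p = 0.059) and Mib1 -0.03, and without mutant array 1 alone Mib1 was -0.04. Among 7 gamma-secretase genes it belonged to Aph1b (-0.18, limma adjusted p = 0.533). Of 16 genes of the nuclear complex and its corepressors, Tle4, a Groucho corepressor recruited by Hes proteins, differed by 0.16 (limma adjusted p = 0.518), and by 0.10 without mutant array 1. The medians of these 3 lists were -0.04, 0.03 and 0.00.

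Among the inhibitors of the pathway, Nrarp, a feedback inhibitor that is itself switched on by Notch, was 9.18, 8.98, 8.90, 8.96 and 8.98 on mutant arrays, against 9.24, 9.18, 9.29, 9.05 and 9.21 on wild-type arrays. Mutant array 1 reached into the wild-type range and the other 4 lay below it. The log2 difference of Nrarp was -0.19 (limma adjusted p = 0.328), and with array weights the adjusted p was 0.0492. Of the 11 inhibitors, 0 passed in limma (1 lower, Nrarp, with p under 0.05 before adjustment), and the next smallest p belonged to Dtx3 (0.12, limma adjusted p = 0.789), whose difference was 0.03 without mutant array 1. Of the 5 other Hes genes and related repressors 0 passed in limma and all 5 lay below 8.57. The 1 that was lower with p under 0.05 before adjustment was Hes7, named after its value was seen (-0.18, adjusted p = 0.378).

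Of 13 further genes reported to respond to Notch in progenitors, 2 fell and 0 rose, with a median of -0.08. With p under 0.05 before adjustment, 4 were lower and 2 higher. The 2 higher were the receptor gene Notch3 and the cell growth regulator Myc, which was named after its value was seen (0.30, limma adjusted p = 0.21). Fabp7, the fatty acid binding protein of radial glia, was 7.55, 7.79, 7.61, 7.77 and 7.78 on mutant arrays, against 8.85, 8.87, 8.64, 8.50 and 8.23 on wild-type arrays. The genotypes did not overlap (log2 difference -0.92, SE 0.11, limma adjusted p = 0.000458). The mean of Fabp7 over all arrays, 8.16, lay below 8.57, so the size is approximate. Id4, an inhibitor of basic helix-loop-helix proteins that can also bind Hes proteins, was 11.06, 11.14, 11.02, 10.79 and 11.10 on mutant arrays, against 11.50, 11.54, 11.33, 11.36 and 11.42 on wild-type arrays. The genotypes did not overlap (-0.41, SE 0.07, limma adjusted p = 0.0175), and Id4 no longer passed when wild-type array 1 (adjusted p = 0.0737) or 2 (0.0796) was left out. Of the 13 partners of Hes proteins, Id4 was the 1 that fell and 0 rose.

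Proneural genes are targets that Hes proteins hold down. Of 9 measured, 1 fell, 0 rose and 8 did not pass, with 3 lower and 1 higher (Neurod6) at p under 0.05 before adjustment. The median difference was -0.16, and 8 of the 9 had mean levels below 8.57. Neurog2, which drives the fate of glutamatergic cortical neurons, was 7.02, 7.18, 7.12, 7.35 and 7.25 on mutant arrays, against 7.52, 7.86, 7.68, 7.43 and 7.65 on wild-type arrays. The genotypes did not overlap (log2 difference -0.44, SE 0.09, limma adjusted p = 0.0254). Leaving out mutant array 2 or 3, or wild-type array 2, 3 or 5, raised the adjusted p of Neurog2 to between 0.0591 and 0.0891.

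Further proneural genes did not pass. The differences of Neurod4, Neurog1 and Neurod1 were -0.21, -0.17 and -0.16 (limma adjusted p = 0.431, 0.677 and 0.626). Without mutant arrays 1 and 5 together that of Neurod4 was -0.11 and that of Neurog1 -0.32 (adjusted p = 0.537 and 0.0712). Those of Neurod2, Atoh1 and Neurog3 were -0.07, -0.07 and -0.03 (limma adjusted p = 0.844, 0.906 and 0.964). Neurod6 differed by 0.25 (limma adjusted p = 0.205) at levels of 3.99 in mutants and 3.74 in wild type, below the medians of the negative controls.

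**Figure D5:**
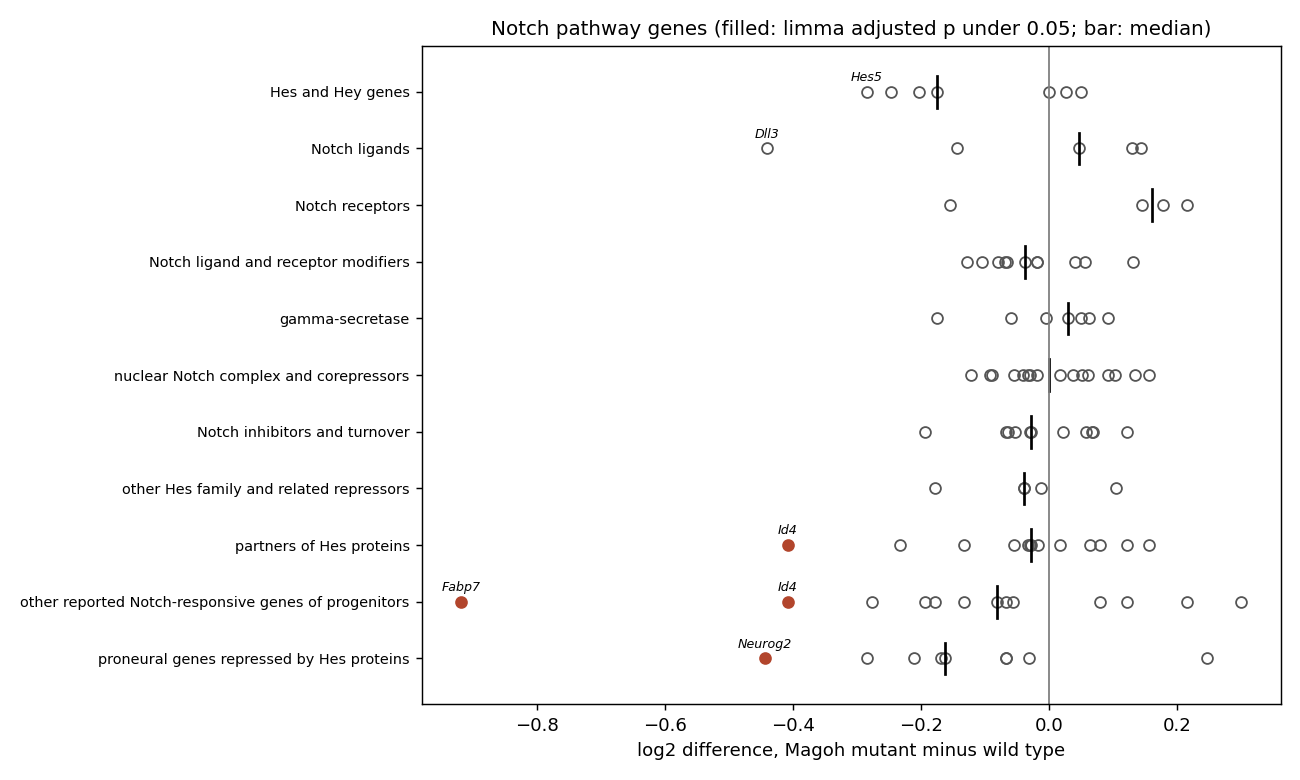
Log2 difference, Magoh mutant minus wild type, of each gene of the Hes and Hey set and of 10 Notch pathway lists. Points are genes, filled where the limma adjusted p was under 0.05, and bars are list medians; a gene on 2 lists appears in both. The filled points are Fabp7, Id4 (on 2 lists) and Neurog2, all below 0.

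For the 3 members with a mean of at least 8.57, the genes with the most similar pattern were looked up among 5404 genes at or above that level. The measure was Pearson's r over the 10 arrays, with r after subtracting each genotype's mean given beside it. All arrays share their normalization, and a search of this size returns high values by its nature, so these are descriptions. For Hes5 the closest were Dpysl4 (r = 0.975, within genotype 0.908), the progenitor filament gene Nes (0.966, within genotype 0.918) and 1110065P20Rik (0.932, within genotype 0.858). For Hes6 they were BC031181 (r = 0.938, within genotype 0.888), the transcription factor gene Bcl11a (0.915, within genotype 0.844) and Ube2s (0.908, within genotype 0.867). For Hes1 they were the ribosomal protein gene Rps6 (r = 0.969, within genotype 0.976), Trim59 (0.943, within genotype 0.946) and Tmem30a (0.934, within genotype 0.961). Ranked by r within genotype instead, the closest to Hes5 were Wdfy3 (0.943), Gm11564 (0.941) and Krtap4-7 (0.94). They were Dalrd3 (0.964), Acot7 (0.933) and Manbal (0.906) for Hes6, and Rps6 (0.976), Tfdp2 (0.97) and Ranbp17 (0.97) for Hes1.

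By position, Hes3, Hes5 and Heyl lie on chromosome 4, as does Magoh, and the other 4 members lie on chromosomes 1, 3, 10 and 16. The differences of the 3 on chromosome 4 were 0.05, -0.28 and 0.03. Of 1213 genes measured on chromosome 4, 6 rose and 4 fell, or 0.824%, where 0.558% of 19192 genes elsewhere passed. Magoh itself is among the 4 that fell.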

How the data were processed

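Per the labels' protocols, RNA was extracted with Trizol from the cortices of single embryos and 300 ng was labelled per array. The authors deposited log2 expression values for which the submitters' processing notes name RMA and Affymetrix Expression Console, without versions. RMA removes a level common to a whole array and compresses fold changes. The deposited annotation columns (other text) named the probe sets, and 10 further columns of per-sample values in that table, whose names match no label, were not used.

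Of 35557 probe sets, 6546 were controls, and 23787 matched a gene of the GRCm38.p6 table by Entrez number (23322) or accession (465). The probe set with the highest mean was kept for each gene, which left 20405. The differences between genotypes were fitted with limma 3.58.1 in R 4.3.3 on all 10 arrays, with Benjamini-Hochberg adjustment over all genes. Contrasts between members used exact permutation tests (scipy 1.17.1). The limma code was tested on simulated data. Precision is limited by the number of arrays, which have no depth of reads. The labels call the arrays biological replicates, so p-values measure the spread between embryos. The members, lists and tests were chosen with earlier results of these data known.

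Members, Magoh, ligands, receptors and proneural genes are named in any case. From the other lists, genes past the threshold are named, and from lists with more than 5 measured genes the 2 with the smallest p. Named too are the 3 genes most like each member with a mean of at least 8.57, by either measure of likeness. A few genes of these lists are counted but not reported here by name. Alternatives were quantile normalization, median centring, 2 limits on dim genes, all named probe sets, array weights, robust variances with an intensity trend, a block for replicate number, a threshold of 0.1, and leaving out each array.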

Additional observations from a re-analysis of the deposited data

Results flagged for a closer look

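Within a genotype, the distance of an extreme array from its nearest neighbour was checked for 33 named genes, or 66 groups of 5 arrays. In 3 of these groups 1 array lay far from the other 4, a share close to the 1 in 20 or so that chance gives. In all 3 it was mutant array 1. Notch4 was 7.55 on that array and 7.27 to 7.34 on the other mutant arrays. Mib1 was 9.13 there and 9.41 to 9.49 on the others. Tle4 was 9.42 there and 9.11 to 9.17 on the others. No Hes or Hey gene met this limit in either genotype.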

How the results depend on the processing

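The number of genes that rose was 53 and the number that fell 64. These were 175 and 233 with array weights, 104 and 120 at a threshold of 0.1, and 253 and 249 without mutant arrays 1 and 5 together. With single arrays left out they were 32 to 89 and 31 to 96, and 29 fell among genes at or above 8.57. Of the Hes and Hey genes, 1 (Hes5) passed with either limit on dim genes, array weights, a threshold of 0.1, or mutant arrays 1 and 5 left out together (0 to 1 with single arrays left out). The difference of Hes5 was -0.28 with either limit on dim genes, -0.34 with array weights and -0.36 without mutant arrays 1 and 5, and -0.33 to -0.26 with single arrays left out. Of the 82 pathway genes, 1 fell among genes at or above 8.57, 7 with array weights and 8, with 1 risen, without mutant arrays 1 and 5 (1 to 5 with single arrays left out). The limit at 8.57 left 5404 genes and 40 of the 82, so fewer were tested.

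Signs turned for members near 0. Hes1 was -0.012 under quantile normalization and -0.021 to 0.046 with single arrays left out. Heyl was -0.031 with array weights and -0.028 to 0.079 with single arrays left out. Without mutant arrays 1 and 5, Heyl was -0.060, Hes3 -0.0019, Jag2 -0.0042 and Atoh1 0.098. With single arrays left out Neurog3 was -0.095 to 0.087, Atoh1 -0.16 to 0.0029 and the contrast of Hes5 and Hes6 -0.094 to 0.019. The causes were not tested.

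With the replicate number as a block, 0 members passed (Hes5 -0.28, adjusted p = 0.125) and the call of Neurog2 was lost (adjusted p = 0.054). Correlations of same-numbered arrays ran between -0.0728 and 0.36, and 2 of 5 mutant arrays correlated best with their own number. These values cannot show whether same-numbered embryos shared a litter or a day. The signal over background limits Hes3 and Hey2 most, whose levels lay near the negative controls. The dim-gene limits gave no value for members below them.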
